A study of Homo sapiens with 6 samples.

Results

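The 200 most abundant long noncoding RNAs (lncRNAs) in SU-CCS-1 cells were followed through knockdown of the EWSR1::ATF1 (EA1) fusion. They were chosen by the rule that takes the lncRNA rows of the count table, leaves out MALAT1 and NEAT1, and keeps the 200 with the largest sum of raw counts over all 6 libraries, out of 3032 lncRNA rows and 18118 genes. Their level was therefore chosen by the rule and is given as a description. The difference between control and knockdown was not part of the rule, but the sum covers more knockdown than control libraries. A member could therefore pass through the group in which it is high. LINC01471, for example, had 293 and 448 of its 802 counts in control, and CYP2U1-AS1 had 13 and 13 of its 572 there. Rank 199, PINK1-AS, had 521 counts and rank 200, ENSG00000247137, had 515, while the rows just outside, ENSG00000273203 and PRECSIT, had 506 and 504. One X-linked member is counted throughout but is given no values.

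The cells are a long-established human line from a clear cell sarcoma, a soft tissue tumor driven by EA1, and all 6 libraries come from this single line. The conditions, each with 2 libraries, were a scramble siRNA (control), EA1 siRNA 1 and EA1 siRNA 2, and polyadenylated RNA was sequenced. The labels do not say that replicates came from separate cultures, so the p values measure the spread between libraries, which may be technical. The libraries held between 5942808 and 7599305 counts, at which 3 counts equal 0.395 to 0.505 CPM (counts scaled to the library total), a floor that covers counting error only. ATF1, whose reads include the fusion, was 3.97-fold higher in control than in knockdown (adjusted p = 9.70e-08), whereas EWSR1 had a log2FC of 0.08 (adjusted p = 0.538). Positive log2FC throughout means a higher level in control. The lineage markers SOX10, MITF and PMEL had mean levels of 827, 654 and 1220 CPM in control, while MLANA was near 0 there, with 4 and 0 counts. CD68, CDH5 and COL1A1, which mark immune, endothelial and fibroblast cells, had mean levels between 0.222 and 3.16 CPM in control and knockdown.

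LncRNAs are transcripts without a long reading frame that are often spliced and polyadenylated like mRNA. Some act as scaffolds or decoys in the nucleus or cytoplasm, some are carriers whose introns release small nucleolar RNAs (snoRNAs) or whose transcript is cut into microRNAs (miRNAs), and some mark the transcription of a neighboring gene. In tumors of the melanocytic and neural crest lineages, several of them are known as markers of lineage or proliferation.

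The miRNA carriers moved in opposite directions, and the mature sequences they contain show which families this touches. Matching of positions placed 122 mature miRNAs of RefSeq (GRCh38.p14) inside 30 of the 200 lncRNAs on the same strand, introns included. Seeds (bases 2 to 8, in capitals) were shared by 2 or more carriers in 7 cases. The largest group of carriers shares the let-7 seed, and MIR99AHG and MIR100HG also share the seeds of miR-99a and miR-125b. The following sequences are shown because 2 or more carriers hold their seed and at least 1 of their carriers rose after knockdown. Sequences of the other carriers that rose are not shown. These carriers are LINC00472 (with miR-30a and miR-30c), MIR3142HG, MIR181A1HG and LINC01505. Positions are given by the lowest base. In MIR99AHG on chromosome 21, miR-99a-5p lies at 16539101, let-7c-5p at 16539838 and miR-125b-5p at 16590253. In MIR100HG on chromosome 11, miR-100-5p lies at 122152275, let-7a-5p at 122146568 and miR-125b-5p at 122099809. The position of let-7i-5p is 62603691 of chromosome 12. MIR100HG, MIR29B2CHG and DLEU2 are on the minus strand, so the lowest base given for their miRNAs is the last of the sequence.
hsa-miR-99a-5p in MIR99AHG: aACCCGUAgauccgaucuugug
hsa-miR-100-5p in MIR100HG: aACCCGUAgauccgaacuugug
hsa-miR-125b-5p in MIR99AHG and MIR100HG: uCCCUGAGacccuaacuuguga
hsa-let-7c-5p in MIR99AHG: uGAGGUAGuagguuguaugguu
hsa-let-7a-5p in MIR100HG, MIRLET7A1HG and MIRLET7BHG: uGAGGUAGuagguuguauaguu
hsa-let-7i-5p in ENSG00000257354: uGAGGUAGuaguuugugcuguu
Carriers that fell after knockdown contain miR-29 in MIR29B2CHG (chromosome 1, from 207801865 for miR-29c-3p), and miR-15a and miR-16 in DLEU2 (chromosome 13, from 50049027 for miR-16-5p), each pair with 1 shared seed.
hsa-miR-29b-3p in MIR29B2CHG: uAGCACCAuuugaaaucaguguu
hsa-miR-29c-3p in MIR29B2CHG: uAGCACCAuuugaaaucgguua
hsa-miR-15a-5p in DLEU2: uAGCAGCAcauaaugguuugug
hsa-miR-16-5p in DLEU2: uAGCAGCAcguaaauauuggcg
The same miR-29b-3p sequence, with miR-29a-3p of that seed, also lies in LINC-PINT (log2FC 0.05), which was not called. MIR4458HG, which fell, carries a miRNA with the let-7 seed. MIRLET7A1HG (log2FC -0.04) and MIRLET7BHG (0.00), which hold the same let-7a-5p sequence as MIR100HG, were not called. The mature miRNAs themselves were not measured in these libraries of polyadenylated RNA.

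Counts of the members were concentrated in a few genes. The 10 most abundant held 46.2% of all member counts, the top 20 held 55.6% and the top 50 held 71.3%. As a share of all counts, the members took 1.02% and 1.15% in control, 1.25% and 1.22% under EA1 siRNA 1, and 1.13% and 1.23% under EA1 siRNA 2, so the control replicate 2 library lay above 1 of the knockdown libraries. MALAT1 and NEAT1, left out by the rule, together held 1.47% in each control library and between 2.16% and 2.55% in the knockdown libraries. Levels between genes were compared per kilobase of exon of GENCODE release 44, in which 196 members were found. Among the members with values given, SNHG16 had the highest mean level on this scale, 212 CPM per kilobase, followed by ENSG00000259001 (157), LINC01443 (107) and NORAD (92.9). LINC00511 and OIP5-AS1, ranks 3 and 5 by raw count, were at ranks 15 and 19 per kilobase (18.8 and 15.1 CPM per kilobase), since their annotated exons sum to 27664 and 22370 bases.

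Knockdown moved the abundant lncRNAs in both directions. In control against the mean of both EA1 siRNAs, 50 of the 200 were higher in control (fell after knockdown) and 59 were lower (rose after knockdown), by the quasi-likelihood test of edgeR, adjusted by Benjamini-Hochberg over the 14571 genes tested, while 91 were not called. Over all genes tested, 22.1% were higher and 21.5% lower in control, so the share of members that fell, 25%, was near the background and the share that rose, 29.5%, was somewhat above it. The rule sums over more knockdown than control libraries, which could favor members that rose, and this was not tested. Calls depend on depth, and among the 1415 less abundant lncRNA rows tested, 135 were higher and 203 lower. The median log2FC was -0.10 over the members, -0.16 over the less abundant lncRNA rows and -0.01 over all genes tested. The median size of the log2FC was 0.54 for members, 0.59 for the less abundant lncRNA rows and 0.41 for all genes. A log2FC below -1 was held by 15.5% of the members against 9.67% of all genes, and one above 1 by 11% against 9.66%. Among the less abundant lncRNA rows these shares were 18.4% and 11.8%, so large changes were not particular to the abundant lncRNAs. In these bulk samples, fewer cells of a type and less RNA per cell cannot be told apart.

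Each siRNA alone gave similar counts against the same control libraries. With EA1 siRNA 1, 47 members were higher and 64 lower in control, where the background was 20.3% and 19.9% of all genes. With EA1 siRNA 2, 44 were higher and 54 lower, against 18.2% and 18.5% of all genes. Both comparisons share the control libraries and are therefore not independent.

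**Figure D1:**
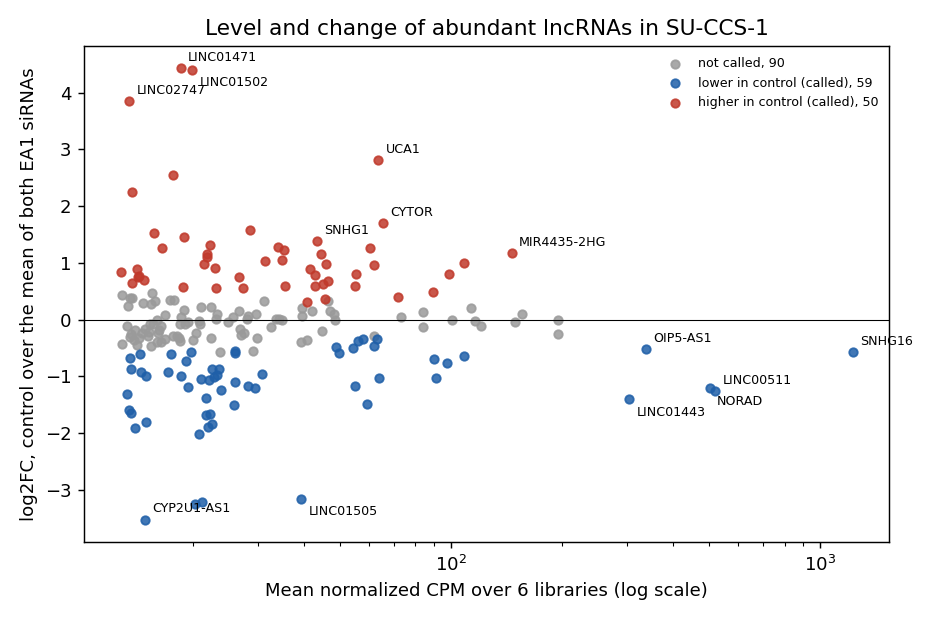
Each point is 1 member with values given, with its mean normalized CPM over 6 libraries on a log scale (x) and its log2FC of control over the mean of both EA1 siRNAs (y), colored by the edgeR call. The 5 labelled members with the highest levels (SNHG16, LINC00511, NORAD, OIP5-AS1 and LINC01443) lie below 0, and LINC01471, LINC01502 and LINC02747 lie highest.

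Among the 10 most abundant members, SNHG16, NORAD, LINC00511, LINC01443 and OIP5-AS1 rose after knockdown, where 21.5% of all genes tested rose and 22.1% fell. SNHG16, a snoRNA carrier, had normalized CPM of 916 and 921 in control, 1467 and 1690 under EA1 siRNA 1, and 1100 and 1255 under EA1 siRNA 2, with all knockdown libraries above both controls. Its log2FC was -0.57 (standard error 0.10, adjusted p = 0.000971). NORAD, a cytoplasmic RNA that binds Pumilio proteins, rose from 295 and 238 CPM to 652 and 694 under EA1 siRNA 1 and to 587 and 544 under EA1 siRNA 2 (log2FC -1.21, standard error 0.11). LINC00511 had 207 and 329 CPM in control and between 599 and 686 in the knockdown libraries (log2FC -1.27, standard error 0.16). These groups did not overlap.

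LINC01443 on chromosome 18 rose from 148 and 141 CPM to between 353 and 417 (log2FC -1.41, standard error 0.11). OIP5-AS1, which is known as a sponge for RNA-binding factors, moved less, from 251 and 269 CPM to 298 and 349 under EA1 siRNA 1 and 439 and 416 under EA1 siRNA 2 (log2FC -0.52, standard error 0.10). FTX, SNHG14 and LINC02099, also among the 10 most abundant, were not called, with log2FC of -0.01, -0.25 and 0.10 and overlapping groups. SNHG14 was called with the replicate number as a block (log2FC -0.26, adjusted p = 0.0366) and without control replicate 2 (log2FC -0.47, adjusted p = 0.0208). MIR4435-2HG, also among the 10, fell and is described below with its near copy CYTOR.

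The strongest decreases after knockdown were found in 3 lncRNAs that lie between protein-coding genes. LINC01471 (ENSG00000239921, minus strand of chromosome 3, 127480690 to 127537817) had normalized CPM of 43.9 and 57.6 in control, 2.70 and 2.47 under EA1 siRNA 1, and 2.14 and 2.11 under EA1 siRNA 2. Control was 21.6-fold above the knockdown mean (log2FC 4.43, standard error 0.19, adjusted p = 3.15e-08). LINC02747 (ENSG00000255774, minus strand of chromosome 11, 69475567 to 69481545) had 35.6 and 35.1 CPM in control and between 1.81 and 3.51 CPM in the knockdown libraries, a 14.5-fold difference (log2FC 3.85, standard error 0.20). In both genes the groups were far apart and the replicates close.

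LINC01502 (ENSG00000237339, plus strand of chromosome 9, 135574935 to 135587112) fell with a wide spread. Its control libraries had 86.4 and 22.2 CPM, and the knockdown libraries had 2.99, 0.988, 5.16 and 1.40 CPM (log2FC 4.41, standard error 0.53, adjusted p = 4.25e-05). The groups did not overlap, but the log2FC was 3.12 without control replicate 1 and 5.12 without control replicate 2. Replicate 1 was above replicate 2 in every condition, and the log2FC was 4.39 with the replicate number as a block. UCA1, an oncogenic lncRNA first known from bladder cancer, had 70.2 and 227 CPM in control, 10.4 and 28.7 under EA1 siRNA 1, and 10.1 and 35 under EA1 siRNA 2. In every condition replicate 2 was higher than replicate 1. Its log2FC was 2.82 (standard error 0.46), and 1.77 without control replicate 2.

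CYP4F26P, a pseudogene transcript, fell from 40.9 and 38.1 CPM to between 4.81 and 8.56 CPM (log2FC 2.55, standard error 0.20). Of its exon sequence, 30.3% overlaps exons of ANKRD18B on the same strand, which fell too (log2FC 2.17, standard error 0.20), and shared reads cannot be told apart. ENSG00000270504 on chromosome 6, which overlaps PXDC1 on the other strand, fell from 28.4 and 29.1 CPM to 6.97 and 7.41 under EA1 siRNA 1 and 4.81 and 5.33 under EA1 siRNA 2 (log2FC 2.25). PXDC1 had a log2FC of 1.6. The remaining members of the 12 with the largest decreases were CYTOR, ENSG00000285106 (log2FC 1.58), LINC01128 (1.52), LINC01060 (1.46), SNHG1 (1.38) and MIR29B2CHG (1.31). The 12 were chosen among called members with both controls above every knockdown library, so this separation is no result.

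**Figure D2:**
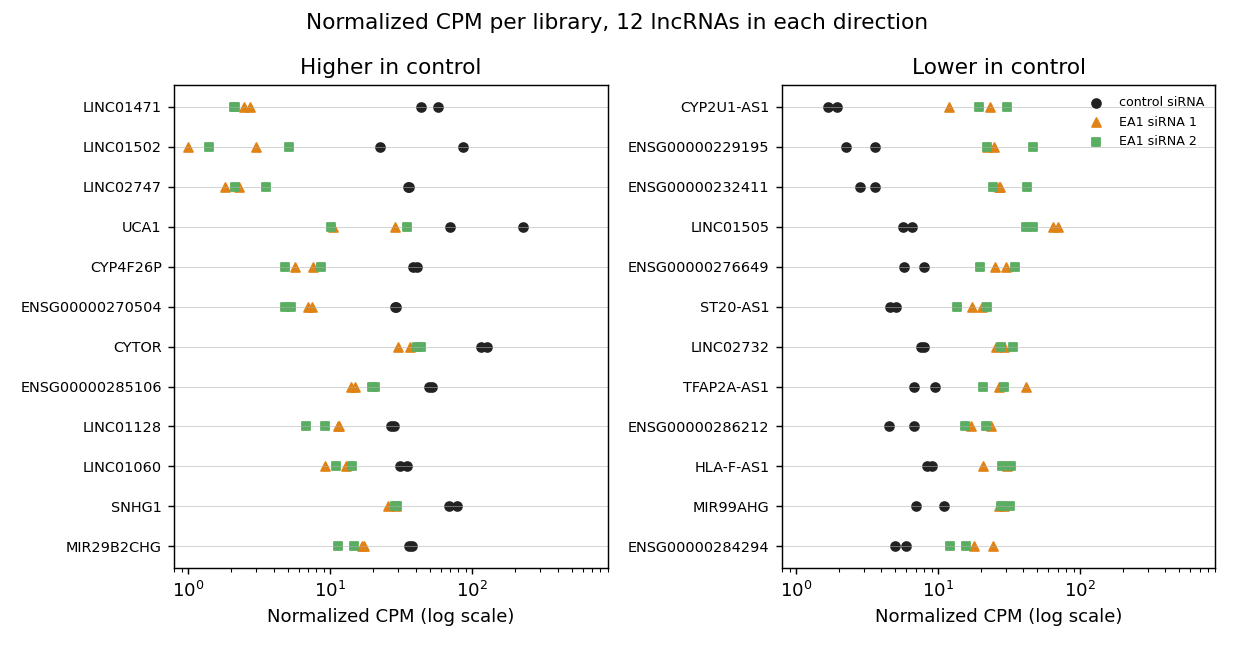
Normalized CPM on a log scale (x) in each library for the 12 members with the largest decrease (left) and the 12 with the largest increase (right) among those called with separated groups (y). Circles are control, triangles EA1 siRNA 1 and squares EA1 siRNA 2, each point 1 library. UCA1 and LINC01502 show the widest spread between replicates, and LINC01471 in control lies at 43.9 and 57.6 CPM.

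CYTOR and MIR4435-2HG, near-identical copies on chromosome 2 that promote proliferation in several cancers, fell together. CYTOR had 115 and 128 CPM in control, 30.01 and 36.2 under EA1 siRNA 1, and 40.6 and 43.2 under EA1 siRNA 2 (log2FC 1.71, standard error 0.10). MIR4435-2HG had 216 and 246 CPM in control, 95.4 and 106 under EA1 siRNA 1, and 90.3 and 120 under EA1 siRNA 2 (log2FC 1.17, standard error 0.11). How reads that fit both copies were assigned is not given in the sources used here, so their separate levels are uncertain. The likeness reaches into their RefSeq promoter windows, which run from 250 bases before to 50 after the annotated start. The longest run shared by both windows was 241 of 300 bases. Capitals mark TGAGTCA, the AP-1 motif, found on either strand, with 2 copies for CYTOR and 1 for MIR4435-2HG inside the window. The RefSeq starts lie 646 and 28215 bases from those of GENCODE. Windows of members that rose held the motif too, as counted below.
CYTOR, chr2:87455177-87455476, plus strand: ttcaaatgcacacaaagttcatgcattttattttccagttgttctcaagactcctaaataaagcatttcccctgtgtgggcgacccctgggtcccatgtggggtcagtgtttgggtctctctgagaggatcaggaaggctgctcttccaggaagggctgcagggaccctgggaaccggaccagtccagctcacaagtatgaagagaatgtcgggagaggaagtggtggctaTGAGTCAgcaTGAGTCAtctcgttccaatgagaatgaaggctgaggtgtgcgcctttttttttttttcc
MIR4435-2HG, chr2:111495112-111495411, minus strand: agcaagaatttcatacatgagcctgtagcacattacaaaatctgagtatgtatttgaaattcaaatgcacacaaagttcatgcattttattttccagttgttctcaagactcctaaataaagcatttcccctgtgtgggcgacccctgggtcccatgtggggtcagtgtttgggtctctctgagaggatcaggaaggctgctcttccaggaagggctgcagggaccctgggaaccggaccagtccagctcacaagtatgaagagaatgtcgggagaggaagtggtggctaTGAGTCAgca

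The proliferation-linked list held 7 members, of which 5 fell (CYTOR, MIR4435-2HG, UCA1, PVT1 and DLEU2), 1 rose (DLEU1) and 1, MIR17HG, was not called. The median log2FC of the list was 1.04, against -0.01 over all genes tested, of which 22.1% fell and 21.5% rose. PVT1, next to MYC, had 122 and 154 CPM in control and between 72.4 and 87.5 in the knockdown libraries (log2FC 0.81, standard error 0.11). MIR17HG, the carrier of the miR-17-92 cluster, had a log2FC of 0.48 (adjusted p = 0.0847), which passed with the replicate block (adjusted p = 0.0226).

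DLEU1 and DLEU2 overlap on opposite strands of chromosome 13 and moved in opposite directions. DLEU2 had 39.1 and 55.5 CPM in control, 20.3 and 19.6 under EA1 siRNA 1, and 23.0 and 30.2 under EA1 siRNA 2 (log2FC 1.04, standard error 0.16, adjusted p = 0.000328). DLEU1 had 11.2 and 12 CPM in control, 37.4 and 27.5 under EA1 siRNA 1, and 39.9 and 26.7 under EA1 siRNA 2 (log2FC -1.50, standard error 0.21, adjusted p = 0.000131). The groups of each gene did not overlap.

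The largest increases after knockdown were held by CYP2U1-AS1, a pair of transcripts on chromosome 2, and LINC01505. CYP2U1-AS1 (ENSG00000245293, minus strand of chromosome 4, 107863473 to 107989724) had 1.95 and 1.67 CPM in control, 23.2 and 12 under EA1 siRNA 1, and 30.4 and 19.5 under EA1 siRNA 2, an 11.8-fold increase (log2FC -3.53, standard error 0.37, adjusted p = 1.70e-05). Of the protein-coding genes it overlaps, CYP2U1 rose (log2FC -0.91, standard error 0.12), SGMS2 fell (log2FC 1.95, standard error 0.18) and HADH was not called (log2FC 0.28, adjusted p = 0.0576). LINC01505 (ENSG00000234323, plus strand of chromosome 9, 105993310 to 106740875) rose from 6.59 and 5.66 CPM to 70.4 and 64.6 under EA1 siRNA 1 and 41.7 and 46.6 under EA1 siRNA 2 (log2FC -3.16, standard error 0.15, adjusted p = 6.69e-08).

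ENSG00000229195 and ENSG00000232411 overlap on the minus strand of chromosome 2, the former from 165794857 to 165846091. ENSG00000229195 had 2.25 and 3.60 CPM in control, 22.2 and 24.7 under EA1 siRNA 1, and 46.6 and 22 under EA1 siRNA 2 (log2FC -3.24, standard error 0.35). ENSG00000232411 had 3.59 and 2.83 CPM in control and between 24.3 and 42.4 in the knockdown libraries (log2FC -3.22, standard error 0.28). Because they lie on the same strand in the same place, they are not independent observations, and how reads shared by overlapping genes were counted is not given.

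Increases with a log2FC between -2.01 and -1.65 were found for the other 8 members of the 12. The 12 were chosen among called members with separated groups. ENSG00000276649, opposite SIRPA, rose from 7.93 and 5.79 CPM to between 19.8 and 35.1 (log2FC -2.01), and SIRPA, the receptor for the CD47 signal, had a log2FC of -1.15. ST20-AS1 rose from 5.09 and 4.63 CPM to between 13.6 and 22.3 (log2FC -1.92), while ST20 had a log2FC of -0.93. TFAP2A-AS1 rose from 9.58 and 6.81 CPM to between 20.6 and 41.7 (log2FC -1.84). It lies opposite TFAP2A, a neural crest and melanocyte transcription factor, which rose as well (log2FC -1.10, standard error 0.10), and 25.9% of its exon sequence overlaps exons of the other strand.

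HLA-F-AS1 rose from 8.38 and 9.13 CPM to between 20.7 and 32.9 (log2FC -1.68, standard error 0.20), whereas HLA-F, a class I antigen presentation gene, had a log2FC of -0.15 (adjusted p = 0.705). LINC02732 (log2FC -1.90), ENSG00000286212 (-1.80), MIR99AHG (-1.66) and ENSG00000284294 (-1.65) complete the 12. Protein-coding exons on the same strand overlap 61.2% of the exon sequence of ENSG00000284294, so shared reads cannot be told apart.

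SnoRNA carriers fell after knockdown more often than they rose. They hold snoRNAs, which guide the modification of ribosomal RNA, in their introns, and several are known to be degraded in translation-dependent decay. Of the 18 members on the list, 12 fell, 2 rose and 4 (SNHG14, SNHG20, SNHG26 and SNHG29) did not pass, with a median log2FC of 0.70, where 22.1% of all genes tested fell and 21.5% rose. SNHG1 had 68.3 and 78.7 CPM in control, 25.5 and 29.1 under EA1 siRNA 1, and 29.5 and 28.6 under EA1 siRNA 2 (log2FC 1.38, standard error 0.11, adjusted p = 2.32e-06). GAS5, whose RNA is known to accumulate on growth arrest, had 87.0 and 94.9 CPM in control, 51.5 and 59.9 under EA1 siRNA 1, and 33.6 and 44.2 under EA1 siRNA 2 (log2FC 0.96, standard error 0.12). ZFAS1 fell from 56.3 and 62.2 CPM to between 30.3 and 37.7 (log2FC 0.79, standard error 0.11).

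SNHG3 had a log2FC of 1.29, SNHG6 1.16, SNHG8 1.10, SNHG17 0.97, SNHG5 0.89, SNHG7 0.75, SNHG32 0.65, DANCR 0.60 and SNHG4 0.57. SNHG4 and SNHG32 lost the call without control replicate 2 (adjusted p = 0.528 and 0.0732), SNHG32 also without control replicate 1 (0.0521), and SNHG4 also without replicate 1 of either EA1 siRNA (0.131 and 0.0537) and with DESeq2 (0.0839). SNHG18 rose from 9.88 and 7.46 CPM to 18.3 and 20.1 under EA1 siRNA 1 and 11.04 and 14.6 under EA1 siRNA 2 (log2FC -0.87, standard error 0.21), a call lost without control replicate 2 (adjusted p = 0.0885). It starts 95 bases from SEMA5A, an axon guidance gene, which rose from a mean of 43.3 CPM in control to 327 and 376 CPM under EA1 siRNA 1 and 2 (log2FC -3.02, standard error 0.14).

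**Figure D3:**
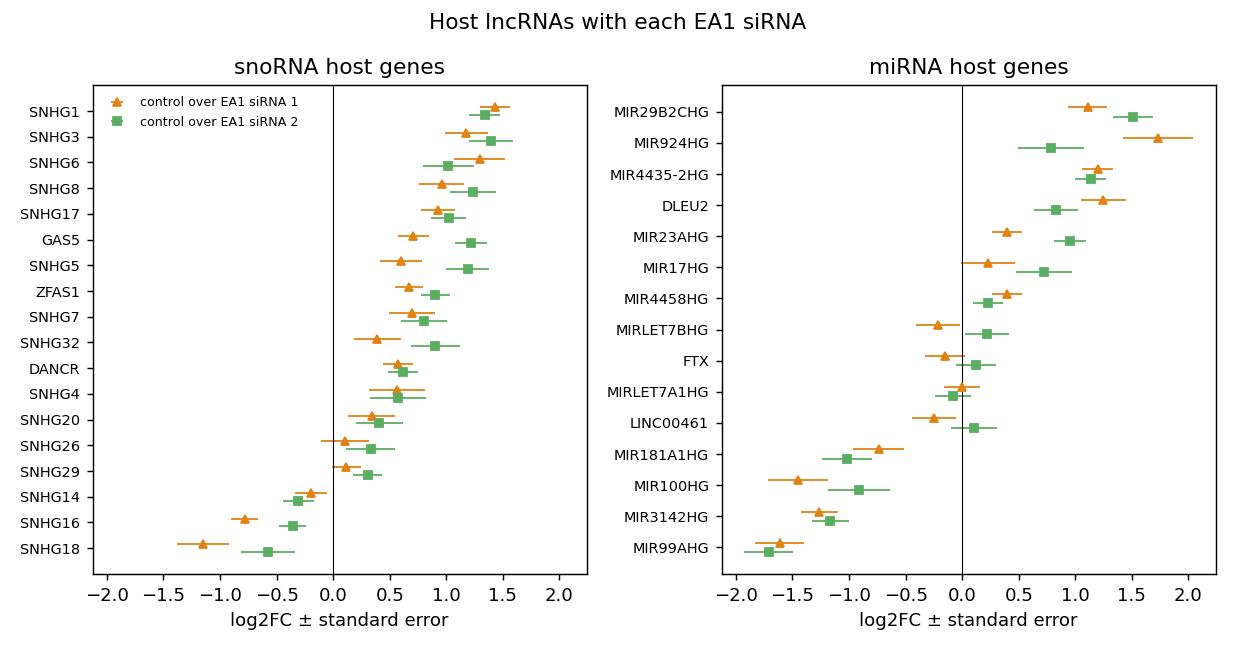
log2FC of control over each EA1 siRNA (x, triangles for EA1 siRNA 1, squares for EA1 siRNA 2, bars are 1 standard error) for the 18 snoRNA carriers (left) and 15 miRNA carriers (right). Most snoRNA carriers lie to the right of 0, with SNHG14, SNHG16 and SNHG18 to the left, while the miRNA carriers spread from MIR99AHG on the left (-1.61 and -1.71) to MIR924HG under EA1 siRNA 1 on the right (1.73).

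The miRNA carriers were divided. Of 15 members on the list, 6 fell, 4 rose and 5 were not called, with a median log2FC of 0.00, beside 22.1% of all genes tested that fell and 21.5% that rose, so the share that rose was near the background. MIR99AHG, which contains miR-99a, let-7c and miR-125b, rose from 7.03 and 11.1 CPM to 29.0 and 26.8 under EA1 siRNA 1 and 27.6 and 32.0 under EA1 siRNA 2 (log2FC -1.66, standard error 0.20, adjusted p = 3.85e-05). MIR100HG, with the paralogous cluster on chromosome 11, rose from 13.9 and 6.94 CPM to 29.4 and 27.0 under EA1 siRNA 1 and 20.8 and 18.1 under EA1 siRNA 2 (log2FC -1.18, standard error 0.24), and its log2FC was -0.72 without control replicate 2. ENSG00000257354, the let-7i carrier that GENCODE names MIRLET7IHG and that was singled out after its values were seen, rose from 7.78 and 12.9 CPM to between 25.4 and 28.7 (log2FC -1.39, standard error 0.20). These 3 rose with separated groups, but the sequences above were printed because a carrier rose, so the number that rose is no result. Of the other members with the let-7 seed, MIRLET7A1HG and MIRLET7BHG were not called and MIR4458HG fell (log2FC 0.31).

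MIR3142HG, which carries miR-146a, a brake on inflammatory signaling, rose from 17.1 and 14.3 CPM to between 32.9 and 37.9 (log2FC -1.21, standard error 0.15). MIR181A1HG rose from 10.5 and 18 CPM to between 23.5 and 29.3 (log2FC -0.88, standard error 0.20), and its log2FC was -0.55 without control replicate 1. In the other direction, MIR29B2CHG fell from 35.6 and 37.8 CPM to 17.2 and 16.8 under EA1 siRNA 1 and 14.6 and 11.4 under EA1 siRNA 2 (log2FC 1.31, standard error 0.14). MIR23AHG, which carries the miR-23a, miR-27a and miR-24 cluster, fell from 55.8 and 66.3 CPM to 49.3 and 43.3 under EA1 siRNA 1 and 30.6 and 32.4 under EA1 siRNA 2 (log2FC 0.68, standard error 0.11).

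MIR924HG had a log2FC of 1.26 and lost the call without control replicate 2 (log2FC 0.76, adjusted p = 0.0509). MIR4458HG was close to the threshold (log2FC 0.31, adjusted p = 0.0458) and its call was lost with no filter on low counts (adjusted p = 0.0541), with DESeq2 (0.147), without either control library (0.131 and 0.158) and without EA1 siRNA 1 replicate 1 (0.154).

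The maternally expressed lncRNAs of the imprinted DLK1-DIO3 region were higher in control, but both calls were lost without control replicate 2. MEG3, a known growth suppressor, had 52.1 and 99.5 CPM in control, 34.6 and 36.4 under EA1 siRNA 1, and 56.4 and 51.4 under EA1 siRNA 2, so the groups overlapped. Its log2FC was 0.80 (standard error 0.19, adjusted p = 0.00568), and 0.29 without control replicate 2 (adjusted p = 0.164). MEG8, 33739 bases away on the same strand, had a log2FC of 0.83 (adjusted p = 0.0169), and 0.50 without that library (adjusted p = 0.248), and its call was also lost without EA1 siRNA 1 replicate 2 (adjusted p = 0.0505). Its groups overlapped too, with 13.8 and 21.5 CPM in control and up to 15.9 CPM under EA1 siRNA 2. Neither was called with that siRNA alone, where the log2FC was 0.50 for MEG3 (adjusted p = 0.110) and 0.41 for MEG8 (adjusted p = 0.288). SNHG14 and KCNQ1OT1, the other imprinted members, had log2FC of -0.25 and -0.29 and were not called, but both were with the replicate block (adjusted p = 0.0366 and 0.0229).

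MEG3 is also the called member whose RefSeq promoter window holds the full cAMP response element TGACGTCA, the palindromic motif known for binding ATF1 and CREB, here in capitals and starting 50 bases before the RefSeq start, which lies 46698 bases from the GENCODE start.
MEG3, chr14:100825858-100826157, plus strand: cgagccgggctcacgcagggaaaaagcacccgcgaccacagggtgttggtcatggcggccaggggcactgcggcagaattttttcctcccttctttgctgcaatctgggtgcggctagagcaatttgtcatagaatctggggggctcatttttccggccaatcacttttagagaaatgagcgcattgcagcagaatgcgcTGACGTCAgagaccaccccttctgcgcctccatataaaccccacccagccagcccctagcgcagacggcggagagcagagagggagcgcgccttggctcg
Windows were found for 123 members. The full element was held by 2 of them, MEG3 and LINC00630 (not called), which is 1.63% against 1.85% of 35116 RefSeq promoters of the same length. The shorter motif TGACG, which is contained in the full element, was held on either strand by 29.3% of the members and 24.6% of all promoters. TGAGTCA was held by 8 members, 6.50% against 4.95% of all. These were 3 of the 29 matched members that fell, 3 of the 43 that rose and 2 of the 51 not called. A motif match describes these letters in this window and shows no binding.

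Both members of the melanocytic list rose after knockdown, where 21.5% of all genes tested rose and 22.1% fell. Of 3 other genes of the list that were tested but are not members, 2 rose and 0 fell. SLCO4A1-AS1 had 37.7 and 36.0 CPM in control, 62.7 and 57.1 under EA1 siRNA 1, and 108 and 81.0 under EA1 siRNA 2 (log2FC -1.03, standard error 0.13, adjusted p = 6.52e-05). LINC00518, which is used as a melanoma marker, had 22.2 and 16.6 CPM in control, 34.6 and 31.8 under EA1 siRNA 1, and 26.2 and 24.7 under EA1 siRNA 2 (log2FC -0.59, adjusted p = 0.00949), and lost the call without control replicate 2 (adjusted p = 0.169). The melanocytic markers PMEL and TYR had higher mean levels in knockdown too, 5425 against 1220 CPM and 106 against 12.1 CPM. SOX10 differed less, with 925 against 827 CPM. The part of these markers in these results was not tested.

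Among 9 nuclear and regulatory lncRNAs with known roles, NORAD and OIP5-AS1 rose and the other 7 were not called, with a median log2FC of 0.00. Over all genes tested 21.5% rose and 22.1% fell, so the share that rose was near the background. The 7 not called were FTX and JPX of the X inactivation center, KCNQ1OT1, HCG18, CHASERR, LINC-PINT and FIRRE, whose log2FC lay between -0.29 and 0.20. LINC-PINT (log2FC 0.05) was also the only p53-responsive member, and no HOX cluster lncRNA was abundant enough to be a member.

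Grouped by the kind of name, antisense lncRNAs rose more often than they fell. Of 46 members named as antisense to a gene, 19 rose and 4 fell after knockdown, with a median log2FC of -0.33, and of 5 named as divergent transcripts 3 rose and none fell. Of the 37 LINC names 12 rose and 8 fell, and of 50 members without a symbol 14 rose and 12 fell. Over all genes tested 21.5% rose and 22.1% fell, and the shares of LINC names (21.6%) and of members without a symbol (24%) that fell were near that background. By position, 12 members without protein-coding exon overlap start within 1 kb of a protein-coding start on the opposite strand. Of these, 8 rose and 1, SNHG1, fell (median log2FC -0.53). Members with such a start and exon overlap were classed by the overlap. Among them are ENSG00000270504, which fell, and ENSG00000276649 and ST20-AS1, which rose. These classes were described after earlier results were known and were not tested against each other.

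**Figure D4:**
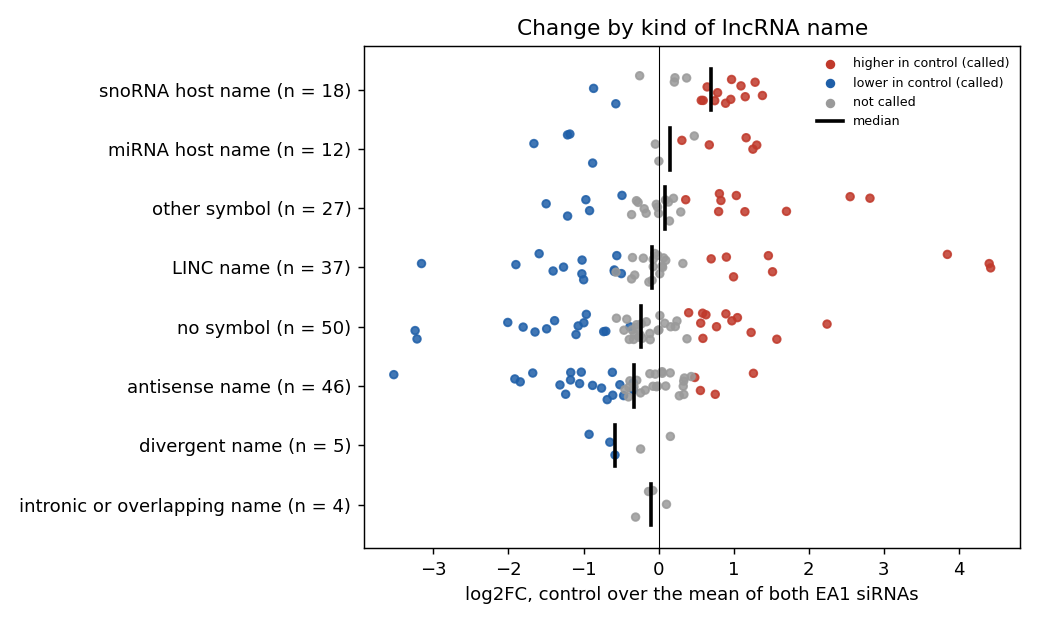
log2FC of control over the mean of both EA1 siRNAs (x) for the members with values given, grouped by the kind of name (y), with points spread vertically for visibility only, colors for the edgeR call and a black bar at the median of the members drawn. Members with snoRNA carrier names lie mostly to the right, with a median of 0.70, and those with antisense names mostly to the left, with a median of -0.33.

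Members that lie between genes mostly changed in the direction of their protein-coding neighbor where both were called. For 150 members the neighbor assigned by GENCODE (an overlapping gene where there was one, otherwise the nearest) was tested. Across these pairs, which share all 6 libraries, the log2FC correlated at Pearson's r = 0.28 and Spearman's rho = 0.34, as a description over genes that are not independent. In the 50 pairs in which both were called, 39 had the same and 11 the opposite direction. For the 56 members between genes, r was 0.39, and 18 of 20 pairs with both called had the same direction. For the 61 with exon overlap on the opposite strand, r was -0.02, with 12 pairs in the same and 7 in the opposite direction.

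In the 12 pairs with exon overlap on the same strand r was 0.74 and all 5 pairs with both called shared their direction, where reads of both genes cannot be told apart. The 12 members with a start within 1 kb on the opposite strand and no exon overlap had r = 0.09. Whether these positions differ from each other was not tested. The libraries were made with a stranded kit, but the strand setting of the counting is not given in the sources used here, so reads of overlapping genes on opposite strands may also have been counted together. At least 20% of the exon sequence overlapped exons of the opposite strand in 16 members, among them SNHG16, ZFAS1, SNHG6, SNHG7, SNHG8, SLCO4A1-AS1 and TFAP2A-AS1.

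**Figure D5:**
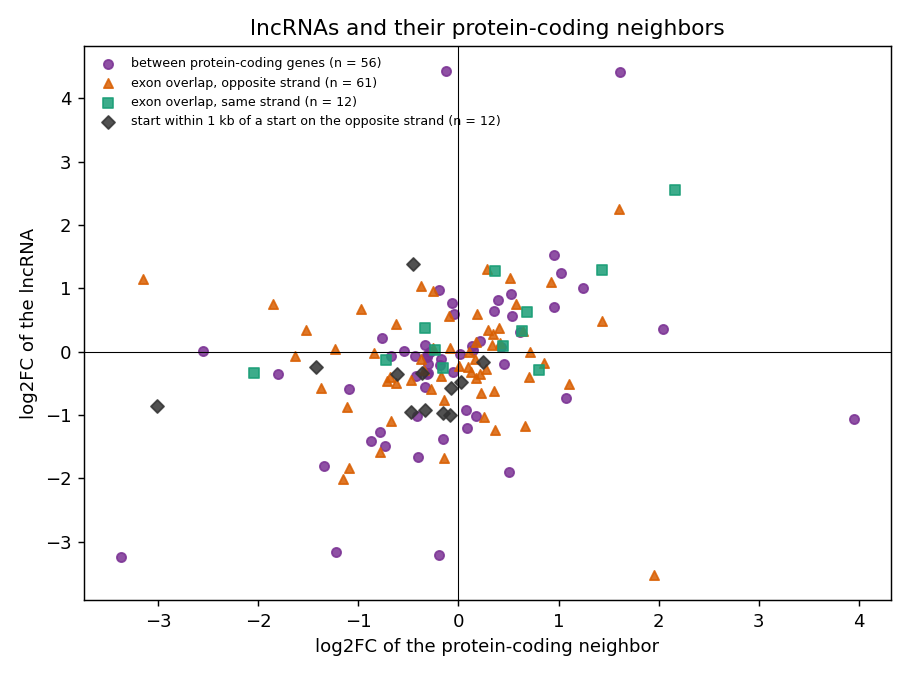
log2FC of the protein-coding neighbor (x) against that of the lncRNA (y), both control over the mean of both EA1 siRNAs, 1 point per pair, with colors and symbols for the relative position. Pairs with same-strand exon overlap (n = 12) rise from left to right, and those with opposite-strand exon overlap (n = 61) show no slope (r = -0.02).

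Named pairs show both patterns. SNHG3 shares its start region and strand with RCC1, a regulator of Ran, and both fell (log2FC 1.29 and 1.44). SNHG1 starts 51 bases from SLC3A2, an amino acid transporter subunit, on the opposite strand, and the lncRNA fell (log2FC 1.38) while SLC3A2 rose (log2FC -0.46, standard error 0.11, adjusted p = 0.00453). OIP5-AS1 rose whereas OIP5, a centromere protein gene, fell from 8.51 CPM in control to 3.48 and 4.42 CPM under EA1 siRNA 1 and 2 (log2FC 1.10, adjusted p = 0.0162). SNHG7 fell and its partner DIPK1B rose (log2FC -1.85).

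The EA1 siRNAs differed from each other in few members. Between them, 4 of 200 were called, 1 higher and 3 lower under EA1 siRNA 1, where 0.796% and 1.44% of all genes were called higher and lower. With the replicate number as a block 19 members were called, 8 higher and 11 lower. LINC01679, which fell with both, had 156 and 164 CPM in control, 64.7 and 57.6 under EA1 siRNA 1, and 116 and 93.5 under EA1 siRNA 2, so it was lower under EA1 siRNA 1 (log2 difference -0.77, adjusted p = 0.0117). ENSG00000261329, opposite KATNIP, had 13.2 and 14.9 CPM in control, 24.2 and 18.4 under EA1 siRNA 1, and 41.7 and 43.5 under EA1 siRNA 2 (log2 difference -0.99, adjusted p = 0.0143). SLCO4A1-AS1 was also lower under EA1 siRNA 1 (log2 difference -0.65, adjusted p = 0.0383), and LINC01505 was higher (log2 difference 0.61, adjusted p = 0.0391). All 4 kept the direction of their change from control with both siRNAs. Without EA1 siRNA 1 replicate 2, no member passed this comparison by edgeR.

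Length and base composition were described by call. Median exon length was 6277 bases for the 50 that fell, 7739 for the 59 that rose and 7579 for the 91 not called, and the median GC content was 45.4%, 43.5% and 44.5%. Members that fell had a median summed count of 1356, those that rose 919, and those not called 844. These differences were not tested.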

How the data were processed

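RNA-seq of 6 SU-CCS-1 libraries was analyzed, with conditions and replicate numbers taken from the labels. The authors aligned reads to hg38 with BWA-MEM, an aligner that does not model splicing, which can cost reads across exon junctions, counted them per gene with featureCounts 1.6.3, and deposited the unnormalized counts of each library. The annotation and the strand setting of the counting are not given in the sources used here. The deposited counts of all genes were filtered with filterByExpr (minimum count 10, minimum total 15, 14571 genes kept), normalized by TMM and tested with edgeR 4.0.16 (R 4.3.3), by the quasi-likelihood test over 3 conditions with Benjamini-Hochberg adjustment and a threshold of 0.05. The contrasts were control against the mean of both EA1 siRNAs, against each, and between them. Standard errors come from the F statistic. CPM are scaled to TMM library sizes. The fit was tested on simulated data. The alternatives were DESeq2 1.42.0, RLE size factors, other filters on low counts, leaving out each library, and choosing members by normalized CPM. The study methods describe 1 siRNA against EA1, whereas the labels list 2, and the labels were followed.

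Deviations of same-numbered replicates correlated across genes at 0.130, 0.199 and 0.144 in the 3 pairs of conditions, so the numbers, which come from the titles, were also used as a block. Positions, exon lengths and neighbors come from GENCODE release 44, promoters and miRNAs from RefSeq (GRCh38.p14).

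The members, rules and gene lists were chosen with earlier results of these data known. Named are, in each direction, the 12 called members with the largest log2FC and separated groups, the 10 most abundant, called members of the 8 lists, members called between the siRNAs, the rows around rank 200, and overlapping or adjoining protein-coding genes. Other genes named with values, such as list members that were not called and genes near a member, were chosen after their values were seen.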

Additional observations from a re-analysis of the deposited data

Results flagged for a closer look

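The 4 members below differed between the EA1 siRNAs by edgeR's test of that difference. LINC01679 was lower under EA1 siRNA 1, with a log2 difference of -0.77 (adjusted p = 0.0117), and its log2FC from control was 1.38 under EA1 siRNA 1 and 0.62 under EA1 siRNA 2. For SLCO4A1-AS1 the difference was -0.65 (adjusted p = 0.0383), with log2FC of -0.70 and -1.36. LINC01505 was higher under EA1 siRNA 1, with a difference of 0.61 (adjusted p = 0.0391) and log2FC of -3.46 and -2.85. ENSG00000261329 differed by -0.99 (adjusted p = 0.0143), with log2FC of -0.60 and -1.60. With the replicate block all 4 passed, with adjusted p between 0.00178 and 0.0134.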

How the results depend on the processing

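The counts of members called in control against both EA1 siRNAs (main value 109) lay between 92 and 119 under the alternatives run, those against EA1 siRNA 1 (111) between 86 and 120 and those against EA1 siRNA 2 (98) between 79 and 110. Choosing the members by summed normalized CPM gave the same 200. Between the EA1 siRNAs the count of 4 (1 higher, 3 lower) was unstable. It was 7 (6 lower) with DESeq2 over 3 conditions, 5 were lower with DESeq2 on only the libraries compared, and 2 were higher without a filter on low counts and with at least 10 counts in every library. With libraries left out in turn it ranged from 0 to 19, the higher ones from 0 to 9 and the lower ones from 0 to 10. Without EA1 siRNA 2 replicate 2 it was 19, and without control replicate 1 or 2 it was 2. The replicate block, whose number comes from the titles, gave 19 (8 higher, 11 lower) there and brought SNHG14, MIR17HG and KCNQ1OT1 past the threshold in the averaged comparison, where it changed no other call of the members chosen by the naming rule. DESeq2 gave an adjusted p between the siRNAs for 153 and 129 members. At an unadjusted p under 0.05, edgeR had 42 members there. A lone library left in a condition is assumed to vary like the others. DESeq2 on only the libraries compared was not run for the averaged comparison.

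Of 670 values of named members under alternatives, 645 kept direction and side of the threshold, 17 lost and 2 gained the call, and 6 changed sign, all of members not called. FTX (log2FC -0.01) turned to 0.0017 with RLE size factors, 0.0018 with DESeq2 over 3 conditions, 0.24 without control replicate 1, 0.04 without EA1 siRNA 1 replicate 1 and 0.12 without EA1 siRNA 2 replicate 2, and LINC02099 (0.10) to -0.001 without EA1 siRNA 2 replicate 2. With libraries left out in turn FTX ranged from -0.29 to 0.24 and LINC02099 from -0.001 to 0.26. The causes were not tested. Precision is limited by 2 libraries a condition and by depth, with 515 counts over 6 libraries at rank 200, and the smallest detectable change was not determined.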

Other observations

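Several strongly changed members lie near protein-coding genes that changed too. These pairs were chosen after their values were seen, from the genes within 200 kb. LINC02747 lies 159611 bases from CCND1, which encodes cyclin D1 and fell from 1342 CPM in control to 97.3 and 153 CPM under EA1 siRNA 1 and 2 (log2FC 3.46, adjusted p = 1.87e-07), beside 3.85 for LINC02747. LTO1, 171531 bases away, had a log2FC of 0.41 and was not called. ENSG00000229195 lies 198 bases from GALNT3, an enzyme that starts O-glycosylation, which rose from 11.9 CPM to 104 and 148 CPM (log2FC -3.37, adjusted p = 9.08e-08), beside -3.24 for the lncRNA. CSRNP3 rose as well (log2FC -1.79), while TTC21B, between them in distance at 11384 bases, had a log2FC of -0.20 and was not called. Around LINC01471 (log2FC 4.43) the genes moved in different directions. MGLL, 151245 bases away, had a mean of 4.40 CPM in control, with a wide spread (standard deviation 3.05). It fell to 0.153 CPM under EA1 siRNA 1, below the floor, and 0.459 CPM under EA1 siRNA 2, near it (log2FC 3.95, adjusted p = 0.000302). MCM2, a subunit of the replicative helicase, fell (log2FC 1.49) and PODXL2 rose (log2FC -0.71). TPRA1, the closest at 33415 bases, and ABTB1 were not called (log2FC -0.12 and -0.21). The p values are those of edgeR, adjusted over all genes tested.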
